A study of Mus musculus with 4 samples.

Results

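Collagens are the structural proteins of the extracellular matrix, built from chains that wind around each other in threes. The 44 genes described here were chosen by their symbols: they are the protein-coding genes of GENCODE M21 (mouse build GRCm38) named Col, a type number, the letter a and a chain number, and all 44 were found among the 34866 gene identifiers of the count table. RNA was sequenced from primary neural progenitors (NSPCs) that had been taken from the mouse dorsal telencephalon, the embryonic origin of the cerebral cortex. The cells came from wild-type embryos at E11.5 and were grown as floating neurospheres with basic fibroblast growth factor for 5 days. In the shControl group (2 libraries) the dissociated cells received 1 lentiviral vector carrying a control short hairpin RNA at a multiplicity of infection of 30. In the triple knockdown group (2 libraries) they received 3 vectors at 10 each, carrying hairpins against Phf21b, Zfp7 and Zfp57. Both groups were thus transduced and carry the same batch label. The vectors for Zfp7 and Zfp57 are named pLV-EG, unlike those for Phf21b (pCS-EG) and the control (CS-EG). The series title concerns regulators of the timing of neuron subtypes, and the comparison addresses which transcripts differ when the 3 factors are targeted together.

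A collagen chain is recognised by glycine at the start of each repeated group of 3 residues (Gly-X-Y), because only glycine fits inside the helix that the chains form. Fibrillar collagens assemble into the banded fibrils of bone, skin and cartilage. Type IV collagen forms the sheet-like network of basement membranes, and fibril-associated collagens with interrupted helices (FACITs), type IX among them, sit on the fibril surface. In the developing cortex the end-feet of radial glia rest on the basement membrane under the meninges, and the fibrillar collagens of the brain are mostly known from meningeal and vascular cells.

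The repeat can be read in the coding sequence as a glycine codon (GGN) that opens each group of 3 codons. Stretches from 4 genes are shown, because the chains of type IX share a helix of equal length and yet gave unlike measurements below, and because Col11a1, which codes for a chain of type XI, shows the fibrillar pattern beside them. Each stretch is the first 90 bases of the gene's longest uninterrupted run in its GENCODE M21 (GRCm38) coding transcript, with the glycine codons of the repeat in capitals. The genes lie at chr1:24177610-24252684 (Col9a1), chr4:121039385-121055322 (Col9a2), chr2:180597790-180622189 (Col9a3) and chr3:114030540-114220718 (Col11a1), all on the plus strand, and the bases are exonic coding sequence with the introns removed.
Col9a1: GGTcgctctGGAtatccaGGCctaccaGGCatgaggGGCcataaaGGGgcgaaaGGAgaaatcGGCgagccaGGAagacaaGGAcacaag
Col9a2: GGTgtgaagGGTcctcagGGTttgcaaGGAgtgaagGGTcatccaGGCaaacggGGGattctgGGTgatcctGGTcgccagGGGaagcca
Col9a3: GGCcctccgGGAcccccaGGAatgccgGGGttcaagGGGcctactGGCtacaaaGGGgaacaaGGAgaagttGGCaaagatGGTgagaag
Col11a1: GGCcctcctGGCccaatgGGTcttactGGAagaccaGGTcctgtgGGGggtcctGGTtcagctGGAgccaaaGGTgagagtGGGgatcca

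The longest run was 113 groups of codons in each of Col9a1, Col9a2 and Col9a3, where runs of at least 10 groups numbered 4 in each gene and covered 57.0%, 75.9% and 76.3% of the codons. Among the fibrillar genes the longest run was 338 groups in Col11a1, Col11a2, Col1a1 and Col5a1, 337 in Col5a3, 339 in Col1a2, Col2a1 and Col5a2, and 344 in Col3a1. It was shorter in Col24a1 (216) and Col27a1 (217), the pair of fibrillar genes whose helix is known to be interrupted. The type IV genes had many short runs, from 13 in Col4a1 and Col4a5 to 18 in Col4a6, and none of their runs exceeded 66 groups. Col12a1, a long FACIT, had only 7.64% of its codons in such runs. Sharing of 31-base words with any other gene's transcripts, which makes the division of reads between genes uncertain, was 0% for the type IX genes and at most 4.32% for any of the 44 genes (in Col6a6).

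The 4 libraries held 14694387 to 20779211 estimated counts, and the mitochondrial genome accounted for 30.3% and 33.9% of them in shControl and for 26.6% and 28.5% in the triple knockdown. The transcripts of the targeted genes measured 75.6% (Zfp57), 81.6% (Phf21b) and 77.6% (Zfp7) of control, with edgeR adjusted p-values of 0.341, 0.644 and 0.80. Zfp57 and Phf21b were lower in both triple knockdown libraries than in both controls, as were 21.7% of all tested genes. The groups of Zfp7 overlapped. The 95% intervals were 58.7% to 97.4% of control (Zfp57), 60.5% to 109.9% (Phf21b) and 44.5% to 135.4% (Zfp7). Before adjustment the edgeR p for Zfp57 was 0.031. The interval lay below control for Zfp57 only, and after adjustment a knockdown was not shown at the transcript level for any target. Nothing in the labels says that the libraries of a group came from separate cultures, so the p-values reflect no more than how these libraries varied, and that variation may be technical. Levels are given in CPM, counts-per-million units computed with edgeR's TMM scaling, or in CPM per kb of exon where genes are compared with each other.

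Collagen transcripts were sparse in these neurospheres, and 1 of them fell in the triple knockdown. All 44 genes together summed to 76.8 and 82.8 CPM in shControl and to 75.3 and 68.9 CPM in the triple knockdown. A filter on low counts left 33 of the 44 genes for testing, and 12 of these 33 averaged under 1 CPM. At an edgeR adjusted p under 0.05, 1 gene was lower (Col9a3), 0 were higher and 32 did not pass. Over all 14050 tested genes 0.826% were called lower and 0.541% higher, or 1.37% in either direction, against 3.03% of the collagen genes. Without adjustment 3 collagen genes (9.09%) had p under 0.05, namely Col9a3, Col5a3 and Col11a1, against 12% of all tested genes. Of these, 2 were lower and 1 higher, where 6.85% and 5.14% of all tested genes were. The median log2 fold change was -0.024 over the 33 genes and -0.0085 over all tested genes. Triple knockdown libraries lay entirely below the control libraries for 9 collagen genes and entirely above for 6, together 45.5%, where 41.3% of all tested genes were separated in this way (21.7% below and 19.6% above). In these counts the collagen genes other than Col9a3 stood close to the background.

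**Figure D1:**
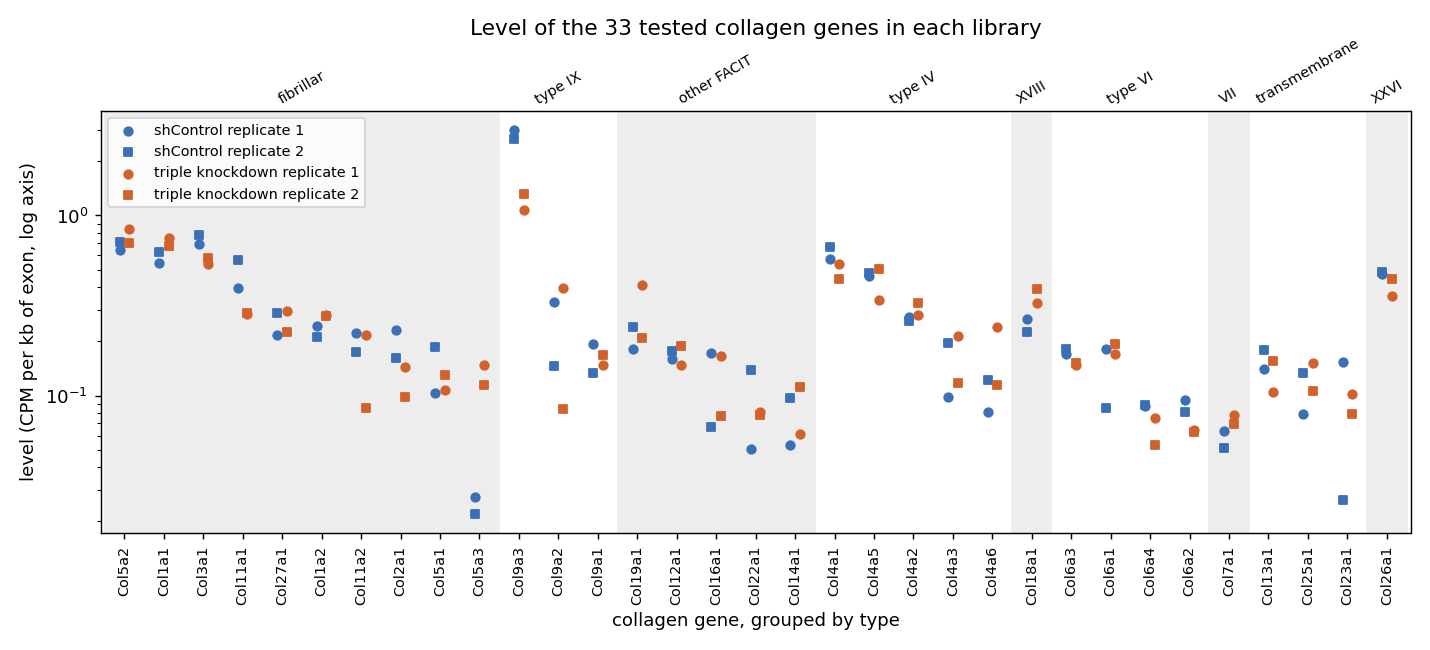
Level of each of the 33 tested collagen genes in each of the 4 libraries, in CPM per kb of exon on a log axis, with genes grouped by collagen type along the horizontal axis (blue shControl, orange triple knockdown; circles replicate 1, squares replicate 2). Col9a3 is the highest gene in every library, with its triple knockdown points (1.08 and 1.32) below its control points (2.98 and 2.65).

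Among the type IX genes, Col9a3 fell to 42.3% of control (95% interval 31.6% to 56.6%). It measured 11.47 and 10.22 CPM in the shControl libraries and 4.16 and 5.08 CPM in the triple knockdown libraries, from 247 and 136 estimated counts against 78 and 78. Both knockdown libraries were therefore below both controls, and the groups were separated by more than their own spread (10.8 ± 0.888 against 4.62 ± 0.653 CPM, SD, n = 2 each). On the log2 scale the difference was -1.24 with an SE of 0.21 (edgeR quasi-likelihood test, adjusted p = 4.86e-05), or 2.36-fold lower. The call was kept in 10 of 11 alternative fits. Without triple knockdown replicate 1 the log2 fold change was -1.10 and the edgeR adjusted p 0.0665, and in that fit only 25 and 17 genes of the whole table were called higher and lower. In bulk RNA such as this, fewer cells that express a gene and less RNA per cell cannot be told apart.

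Col9a1 and Col9a2, which code for the other chains of the type IX molecule, were far scarcer and did not pass the test. Col9a1 measured 0.975 and 0.676 CPM in shControl and 0.746 and 0.847 CPM in the triple knockdown. Col9a2 measured 1.02 and 0.451 CPM against 1.23 and 0.261 CPM. For both genes the groups overlapped, and in Col9a2 replicate 1 was above replicate 2 in both groups. Their log2 fold changes were -0.088 (95% interval -1.19 to 1.01) and -0.0067 (-1.16 to 1.14), with edgeR adjusted p-values of 0.975 and 0.999. These intervals reach past a halving in either gene and end just short of the Col9a3 value, and the difference between the genes was not tested. Per kb of exon, Col9a3 was 15.5 and 19.9 times the level of Col9a1 in the shControl libraries and 7.33 and 7.89 times in the triple knockdown libraries. Against Col9a2 the ratios were 9.02 and 18.2, then 2.72 and 15.7, and these overlapped, with Col9a2 counts as low as 4 and 6. In cartilage these chains are known to assemble in equal number.

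Col9a3 took 14.9% and 12.3% of the summed collagen CPM in shControl and 5.52% and 7.38% in the triple knockdown. The other collagen genes summed to 65.4 and 72.6 CPM against 71.2 and 63.8 CPM, which overlapped. On chromosome 2 the last exon of Col9a3 overlaps Tcfl5, a gene on the opposite strand, over 6.07% of the Col9a3 exonic length, and no source used here says whether the counting used strand. Tcfl5 itself had 8, 6.03, 9 and 5 estimated counts and was not tested. Within 250 kb of Col9a3 a further 4 genes were tested (Ogfr, Mrgbp, Dido1 and Gid8, a window chosen after the values were seen). Their log2 fold changes ran from -0.12 to 0.089 and 0 passed. Col20a1, the nearest other collagen gene at 364 kb, had 9 and 9 counts against 9 and 5 and was not tested.

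**Figure D2:**
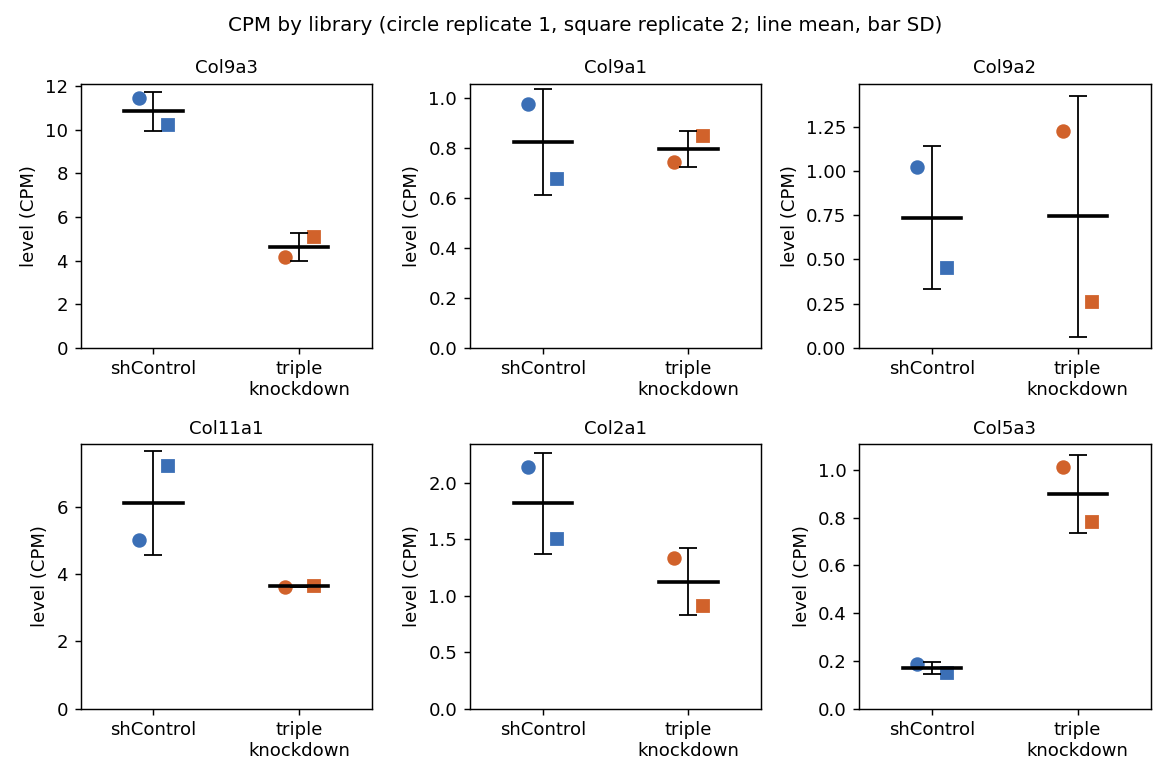
CPM in each library for Col9a3, Col9a1, Col9a2, Col11a1, Col2a1 and Col5a3 (horizontal axis: group; points: libraries; line: mean; bar: SD of 2 libraries; each panel starts at 0 with its own scale). Col9a3, Col11a1 and Col2a1 sit lower and Col5a3 higher in both triple knockdown libraries than in both controls, while the groups of Col9a1 and Col9a2 overlap.

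Cartilage fibrils combine type IX with types II and XI, so their genes were set beside Col9a3. Col11a1, whose type XI chain limits the width of cartilage fibrils, measured 5.02 and 7.21 CPM in shControl and 3.62 and 3.65 CPM in the triple knockdown. Both knockdown libraries were below both controls, and the log2 fold change was -0.73 (SE 0.25), but it did not pass (edgeR adjusted p = 0.140). Without shControl replicate 1 it did (log2 fold change -0.99, edgeR adjusted p = 0.0302), and without shControl replicate 2 the log2 fold change was -0.44. Col2a1, the main collagen of cartilage, measured 2.14 and 1.50 CPM against 1.33 and 0.912 CPM, separated but also short of the threshold (log2 fold change -0.70, 95% interval -1.55 to 0.14). Col11a2, the partner of Col11a1, measured 1.53 and 1.20 CPM against 1.49 and 0.586 CPM, and its groups overlapped. Of 11 other cartilage genes listed, 5 were tested and 0 passed, with a median log2 fold change of -0.20. Sox6, a transcription factor of chondrocytes that neural progenitors also express, had the smallest p of these, at 9.29 and 9.09 CPM against 6.82 and 7.10 CPM (log2 fold change -0.40, edgeR adjusted p = 0.416). Hapln1, which links hyaluronan to proteoglycans, came next and overlapped (2.46 and 2.48 against 2.61 and 1.04 CPM). The untested cartilage genes Acan, Comp, Matn1, Matn3 and Cnmd had at most 6 counts in a library, and Snorc had 0 in all 4.

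The remaining fibrillar genes went in both directions, and 0 of the 10 tested fibrillar genes passed. Of these 10, 5 had a log2 fold change above 0 and 5 below, with a median of -0.090. Col5a3, a type V chain, had the highest log2 fold change of the 33 tested collagen genes and also the widest error. Its estimated counts were 4 and 2 in shControl and 19 and 12 in the triple knockdown, that is 0.186 and 0.150 CPM against 1.01 and 0.782 CPM. The groups were well apart, the log2 fold change was 2.35 (SE 0.74; 5.09-fold, 95% interval 0.88 to 3.81 on the log2 scale), and the edgeR adjusted p was 0.0941. Col5a3 passed the filter on low counts only through the triple knockdown libraries, so it could enter the test only by being higher there. Its log2 fold change stayed between 2.14 and 2.53 in 10 alternative fits that tested it, and 0 of them called it.

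Col5a1 and Col5a2, the other chains of type V, which starts fibrils and sets their width, did not follow it. Col5a2 measured 6.18 and 6.84 CPM against 8.10 and 6.78 CPM, and Col5a1 0.882 and 1.58 against 0.906 and 1.11 CPM, both with overlapping groups. Col3a1, the type III collagen of vessels and skin and a known ligand of the receptor Adgrg1, measured 6.83 and 7.66 CPM against 5.28 and 5.67 CPM. It was lower in both knockdown libraries without passing (log2 fold change -0.40, 95% interval -0.84 to 0.038, edgeR adjusted p = 0.478). Col1a1 and Col1a2, the chains of type I collagen, were by contrast slightly higher in both knockdown libraries. Col1a1 measured 3.58 and 4.13 CPM against 4.90 and 4.43 CPM, and Col1a2 3.02 and 2.63 against 3.46 and 3.45 CPM. Neither passed, with log2 fold changes of 0.29 (95% interval -0.22 to 0.80) and 0.28 (-0.30 to 0.87). Col27a1, a fibrillar collagen of the growing skeleton, measured 2.83 and 3.76 CPM against 3.84 and 2.93 CPM and overlapped. The counts of Col24a1, its closest relative, were 5 or fewer in every library.

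Markers of the cells that usually make fibrillar collagen were measured in the same libraries. The 10 genes listed for meningeal fibroblasts and mesenchyme summed to 82.2 and 79.0 CPM in shControl and 68.1 and 74.9 CPM in the triple knockdown, so both knockdown libraries were lower. Of these, 9 were tested, 0 passed and the median log2 fold change was -0.28. Pdgfra (11.1 and 14.2 against 9.27 and 9.38 CPM) and Zic1 (24.5 and 25.0 against 18.5 and 22.3 CPM), which neural cells also express, had the smallest p of that list. The lower sums include both genes, so they do not show a fall of the fibroblast genes as a whole. Of the 9 tested genes, 4 were lower in both knockdown libraries and 5 overlapped, among them Lum, the most abundant of the list. The fibroblast proteoglycan genes Lum, Dcn and Ogn had log2 fold changes of -0.012, -0.13 and -0.40. Those of Foxc1 and Postn were -0.51 and -0.50, and those of Twist1 and Prrx1 were 0.19 and 0.0077. Postn and Dcn were lower in both knockdown libraries, and Foxc2 had at most 1 count in a library. Pericyte and mural cell markers summed to 8.50 and 10.1 against 9.33 and 8.93 CPM, with 6 of 10 tested, 0 passing and a median log2 fold change of -0.032. Endothelial markers summed to 10.7 and 12.5 against 11.2 and 9.25 CPM, with 5 of 10 tested, 0 passing and a median of -0.15. Among these Egfl7, a protein secreted by endothelial cells, measured 2.04 and 1.88 CPM against 1.12 and 0.651 CPM, lower in both knockdown libraries (log2 fold change -1.12, edgeR adjusted p = 0.231). Flt1 went the other way, at 1.07 and 0.901 CPM against 1.23 and 1.17 CPM (log2 fold change 0.27, edgeR adjusted p = 0.890). The groups overlapped for the other 3 tested endothelial markers, and 2 of the 5 had log2 fold changes above 0. Neural progenitor markers, all 10 tested, had 0 passing and a median of -0.21. Of the 10, 5 were lower in both knockdown libraries, 1 (Vim) was higher in both and 4 overlapped. Over all tested genes 21.7% were separated downwards and 19.6% upwards. No marker of these lists was at 0 in every library. The part of these cells in the collagen values was not tested.

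**Figure D3:**
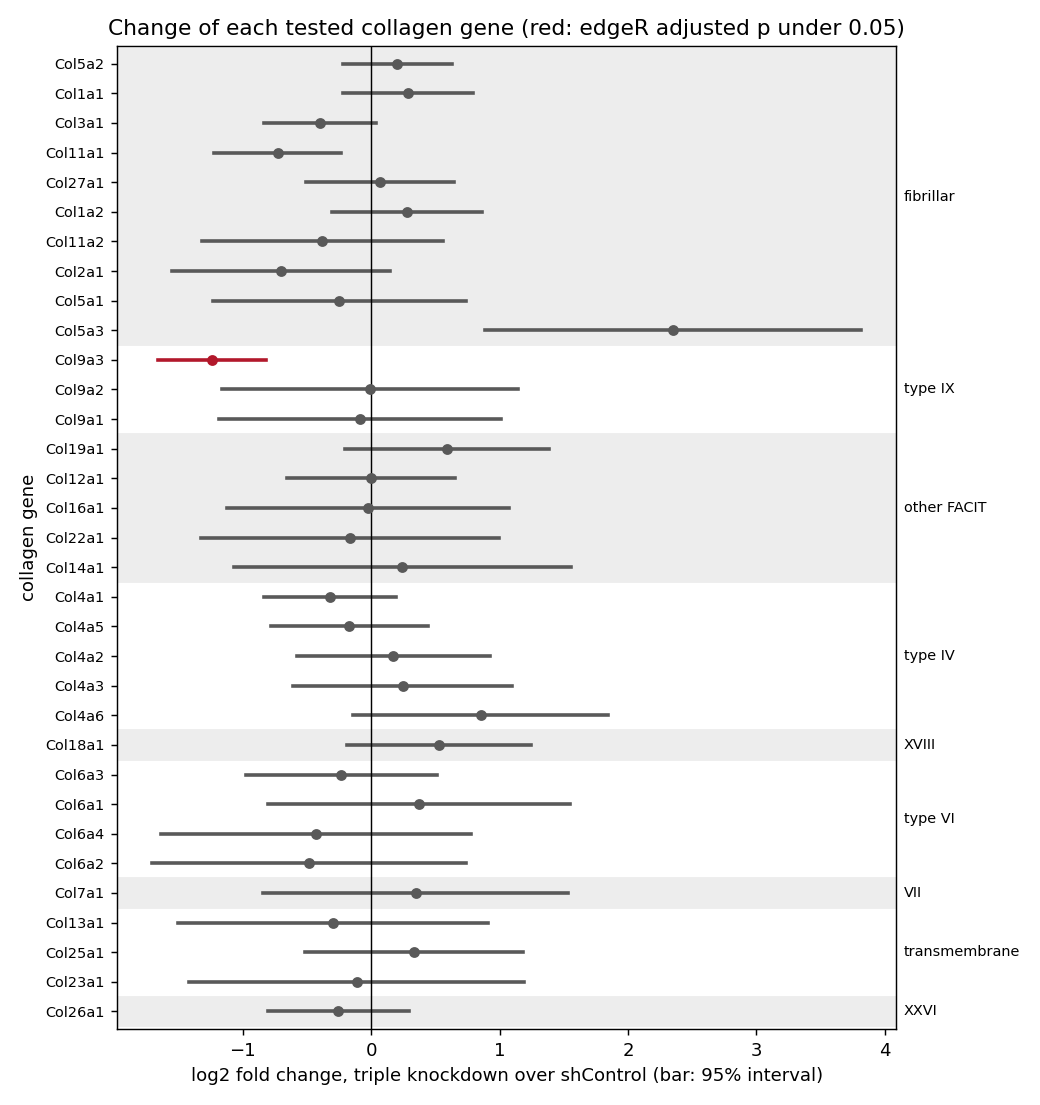
Log2 fold change of each tested collagen gene, triple knockdown over shControl (horizontal axis), with its 95% interval from the edgeR fit, grouped by type along the vertical axis. Col9a3, in red, is the gene past the threshold at -1.24. The intervals of Col5a3 (0.88 to 3.81) and Col11a1 (-1.22 to -0.23) also lie away from 0 without passing after adjustment.

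Basement membrane collagen showed no called change. Col4a1 and Col4a2, which together form the common type IV network, are transcribed from opposite strands of chromosome 8, and the annotated genes overlap by 22 bases where they start. Col4a1 measured 4.27 and 4.96 CPM in shControl and 3.998 and 3.32 CPM in the triple knockdown, separated downwards (log2 fold change -0.32, 95% interval -0.83 to 0.20). Col4a2 measured 1.81 and 1.73 against 1.87 and 2.15 CPM, separated upwards (log2 fold change 0.17, 95% interval -0.58 to 0.93). Both intervals lie within a 2-fold change in either direction and include 0.

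The other type IV pairs share the same head-to-head layout, with 71 bases between Col4a3 and Col4a4 on chromosome 1 and 1308 bases between Col4a5 and Col4a6 on chromosome X. Col4a5 measured 3.11 and 3.23 CPM against 2.29 and 3.39 CPM, and Col4a6 0.650 and 0.977 against 1.92 and 0.912 CPM. The high Col4a6 value came from triple knockdown replicate 1: without that library its log2 fold change went from 0.85 to 0.20. Col4a3, a chain of the kidney and inner ear network, measured 0.975 and 1.95 against 2.13 and 1.17 CPM, and its partner Col4a4 had 1 to 11 counts and was not tested. Groups overlapped for Col4a3, Col4a5 and Col4a6. Col18a1, which yields endostatin and lies in the basement membrane zone, measured 1.86 and 1.58 CPM against 2.29 and 2.74 CPM, higher in both knockdown libraries but not past the threshold (log2 fold change 0.53, 95% interval -0.19 to 1.25, edgeR adjusted p = 0.605). Its relative Col15a1 had at most 6 counts in a library.

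Laminins and other partners of type IV collagen in the basement membrane gave 13 tested genes of 16 listed, 0 of which passed, with a median log2 fold change of -0.14. Lama4, the laminin chain of vessel walls, measured 0.511 and 0.526 CPM against 1.17 and 1.30 CPM (log2 fold change 1.24, edgeR adjusted p = 0.333). Lama5, a chain of many epithelial basement membranes, measured 1.86 and 2.63 against 1.65 and 0.651 CPM (log2 fold change -0.90, edgeR adjusted p = 0.35). Their edgeR p-values before adjustment were 0.0287 and 0.0332, with opposite signs. Lama4 had 11 and 7 counts in shControl against 22 and 20, and like Col5a3 it passed the filter on low counts only through the triple knockdown libraries, so it could enter the test only by being higher there.

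The other collagen types were mostly under 3 CPM, and 0 of their genes passed. Among FACITs other than type IX, 5 were tested and the groups overlapped for all 5, with log2 fold changes from -0.16 (Col22a1, of tissue junctions) to 0.59 (Col19a1). Col19a1, which lies 9.21 kb from Col9a1 on chromosome 1 and is known from interneurons in the brain, measured 1.25 and 1.65 CPM against 2.82 and 1.43 CPM. Without triple knockdown replicate 1 its log2 fold change was -0.0003. Col12a1 and Col14a1, which bind type I fibrils, had log2 fold changes of -0.0033 and 0.24, and Col16a1 -0.024. Col14a1 measured 0.372 and 0.676 CPM against 0.426 and 0.782 CPM, and Col22a1 0.465 and 1.28 against 0.746 and 0.717 CPM. Of the type VI genes, whose chains form beaded filaments, Col6a2, Col6a3 and Col6a4 were lower in both knockdown libraries (log2 fold changes -0.48, -0.23 and -0.43) and Col6a1 overlapped (0.37). Over all tested genes 21.7% were separated downwards in this way. Col6a2 measured 0.790 and 0.676 CPM against 0.533 and 0.521 CPM, and Col6a4 0.743 and 0.751 against 0.640 and 0.456 CPM. Col6a1 measured 0.790 and 0.376 CPM against 0.746 and 0.847 CPM. The smallest edgeR adjusted p among these 4 was 0.832. Col6a2 entered the test only through its control libraries, where it had 17 and 9 counts against 10 and 8.

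Transmembrane collagens are anchored in the cell surface and can be shed from it. Of these, Col25a1, a neuronal collagen also found in amyloid plaques, measured 1.02 and 1.73 CPM against 1.97 and 1.37 CPM. Col13a1, known from the neuromuscular junction, measured 0.650 and 0.826 against 0.480 and 0.717 CPM, and Col23a1 0.882 and 0.150 against 0.586 and 0.456 CPM. All 3 overlapped. Col26a1 measured 3.86 and 3.98 CPM against 2.93 and 3.65 CPM, lower in both knockdown libraries without passing (log2 fold change -0.26, 95% interval -0.81 to 0.29). By mean level per kb of exon it came seventh, a rank that depends on its divisor of 8.18 kb for 440 codons. Col7a1, which anchors the skin to its basement membrane, measured 0.650 and 0.526 against 0.80 and 0.717 CPM (log2 fold change 0.35, 95% interval -0.84 to 1.53).

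In the order of levels per kb of exon, averaged over the groups, Col9a3 came first at 2.01 CPM per kb and was first in each of the 4 libraries. Col5a2 (0.727), Col1a1 (0.649), Col3a1 (0.648) and Col4a1 (0.554) followed, and their library values ran into one another, so their order is not resolved. Next came Col4a5 (0.447), Col26a1 (0.441) and Col11a1 (0.383), whose library values also ran into one another. The lowest tested gene was Col7a1 at 0.065 CPM per kb. Type I collagen is known as a molecule of unequal chains, with more Col1a1 than Col1a2 product. Col1a1 exceeded Col1a2 per kb in every library (0.545 to 0.747 against 0.212 to 0.279). Much of that gap comes from the divisor, because the annotated exons sum to 6.56 kb for Col1a1 and 12.4 kb for Col1a2. Their coding sequences are close in length (1453 and 1372 codons), and in CPM the genes were nearer (3.58 to 4.90 against 2.63 to 3.46). The values are therefore no measure of the chain ratio. In the type IV pair Col4a1 exceeded Col4a2 per kb in every library (0.445 to 0.664 against 0.261 to 0.325).

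The 11 genes left out of the test were Col4a4, Col6a5, Col6a6, Col8a1, Col8a2, Col10a1, Col15a1, Col17a1, Col20a1, Col24a1 and Col28a1, and their counts ran from 0 to 12.3 in a library. They include Col10a1, the mark of hypertrophic cartilage (1, 0, 1 and 0 counts), and Col17a1, of the attachment plaques of skin (0, 0, 5 and 0). The highest summed count outside the test was that of Col20a1, and the lowest inside it was shared by Col5a3 and Col14a1. At this depth a change between such low counts could not be resolved. A gene above the filter in both libraries of either group would have entered the test, as Col5a3 did. Among the 32 tested genes that did not pass, the 95% interval lay within a 2-fold change in either direction for 11, namely Col1a1, Col1a2, Col3a1, Col4a1, Col4a2, Col4a5, Col5a2, Col6a3, Col12a1, Col26a1 and Col27a1. For 7 others the interval still contained the Col9a3 value, among them Col2a1 and Col11a2, and SEs ranged from 0.21 to 0.74 over the 33 genes.

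**Figure D4:**
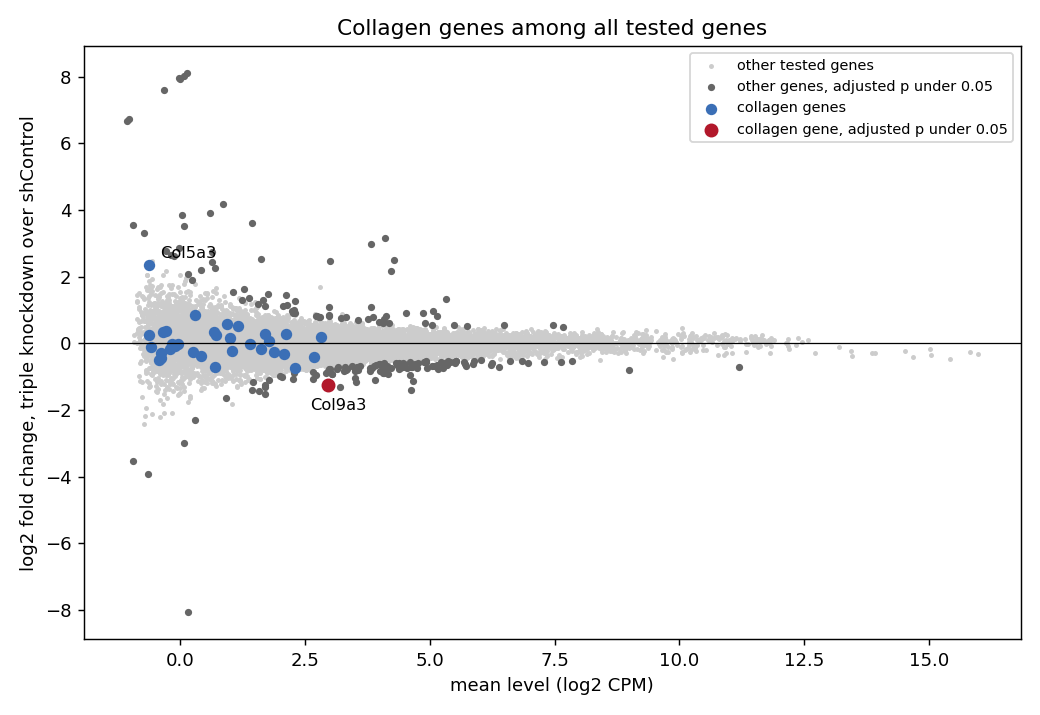
Mean level (log2 CPM, horizontal axis) against log2 fold change of triple knockdown over shControl (vertical axis) for all 14050 tested genes, with other called genes in dark grey, collagen genes in blue and the called collagen gene Col9a3 in red. The collagen genes lie at the low end of the levels, where the spread of fold changes is wide, and Col9a3 at -1.24 sits at the lower edge of the cloud.

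Genes that make, bind or break down collagen were also counted. Of 30 enzymes and chaperones of collagen processing 25 were tested and 0 passed, with 12 log2 fold changes above 0, 13 below and a median of -0.033. Pcolce2, an enhancer of procollagen cleavage, had the smallest p of these, at 1.49 and 1.05 CPM against 3.04 and 1.82 CPM (log2 fold change 0.92, edgeR adjusted p = 0.295). Loxl2, a lysyl oxidase that cross-links collagen, came next at 0.882 and 0.225 against 1.60 and 1.11 CPM (log2 fold change 1.17, edgeR adjusted p = 0.345). Of 10 receptors 8 were tested and 0 passed, with a median of 0.025. Itgb1, the integrin subunit common to all collagen-binding integrins, measured 47.1 and 41.5 CPM against 48.5 and 59.7 CPM (edgeR adjusted p = 0.409), and Lair1, an inhibitory receptor of immune cells, 1.30 and 1.80 against 0.959 and 0.977 CPM (edgeR adjusted p = 0.629).

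Of 15 proteases and inhibitors of matrix degradation 13 were tested, 1 rose and 12 did not pass, with a median log2 fold change of -0.017, where 0.541% of all tested genes were called higher and 1.37% in either direction. Before adjustment 4 of the 13 had p under 0.05 in the edgeR test, against 12% of all tested genes. Besides Timp4 these were Mmp1a (log2 fold change 0.77), Timp1 (0.69) and Ctsk (-1.04). The gene that rose was Timp4, an inhibitor of matrix metalloproteinases, from 4.78 and 4.66 CPM to 9.22 and 7.49 CPM, with both knockdown libraries above both controls. The log2 difference was 0.83, with an SE of 0.22 and an edgeR adjusted p of 0.0302. The call held in 7 of 11 alternative fits. It was lost in DESeq2 (adjusted p = 0.308), without shControl replicate 1 (edgeR adjusted p = 0.0537), and without triple knockdown replicate 1 or replicate 2 (edgeR adjusted p = 0.749 and 0.0961).

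**Figure D5:**
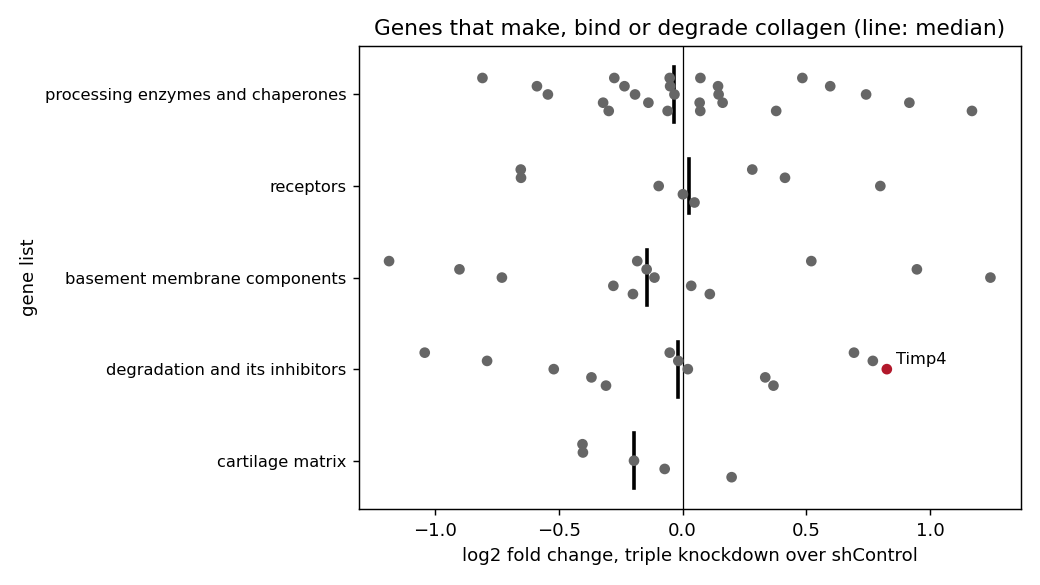
Log2 fold changes, triple knockdown over shControl (horizontal axis), of the tested genes in each list of collagen partners (vertical axis; each point is a gene, the line the list's median, red an edgeR adjusted p under 0.05). Medians lie between -0.20 and 0.025, and Timp4, at 0.83, is the gene past the threshold.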

How the data were processed

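Values were used as the authors deposited them, as estimated counts without normalization, in 1 gene table. Per the submitters' processing notes they came from Salmon with the builds GRCm38 and mm10, while version, annotation release and strand setting are not stated. Per the labels' protocols, total RNA went into NEBNext Ultra II libraries. Counts were rounded to whole numbers. GENCODE M21 held 34652 of the 34866 identifiers, compared with the version removed.

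The whole table was tested with edgeR 4.0.16 in R 4.3.3: filterByExpr with a minimum count of 10 (14050 genes kept), TMM, a robust quasi-likelihood fit, a two-sided quasi-likelihood F test and Benjamini-Hochberg adjustment over all tested genes, with a threshold of 0.05. SE is the log2 fold change divided by the square root of F, and 95% intervals use the fit's degrees of freedom. Alternatives used DESeq2 1.42.0, limma 3.58.1, other scalings and filters, and libraries left out. The test code was run on counts simulated with the same dispersion for every gene. That run cannot show how well the p-values hold for sparse genes such as these. With 2 libraries a group, no exact permutation test can reach that threshold, and none was used. Levels per kb use the summed length of all annotated exons. Every tested collagen gene is named. Partner genes are named where they passed, or else the 2 with the smallest p. In the basement membrane and degradation lists, others with p under 0.05 before adjustment are named too. Markers were named after their values were seen. The members and lists were chosen with earlier results of these data known.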

Additional observations from a re-analysis of the deposited data

How the results depend on the processing

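Col9a3 was called lower in 10 of 11 alternatives, with log2 fold changes from -1.38 to -1.10. The count of collagen genes called lower ran from 0 to 2 with 1 library left out, and was 1 in the other alternatives, while 0 were called higher in every alternative run. All tested genes called higher numbered 76, with a range of 25 to 294 when 1 library was left out and 30 in DESeq2. Those called lower numbered 116, with a range of 17 to 314 when 1 library was left out, 28 with scaling by library size alone and 39 in DESeq2. The median log2 fold change of the collagen genes was 0.039 with scaling by library size alone and -0.14 to 0.068 with 1 library left out.

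Of 352 pairs of a collagen gene and an alternative, 33 changed sign, all in genes that passed in no fit, and 19 of 33 genes kept their sign throughout. With scaling by library size alone the log2 fold changes were 0.077 (Col12a1), 0.039 (Col16a1) and 0.062 (Col9a2). In DESeq2 they were 0.0080, 0.014 and 0.016 for the same genes. Col12a1 was at 0.00035 when genes had to reach 1 CPM in 2 libraries, and in limma-voom Col22a1 was at 0.073 and Col23a1 at 0.21. With 1 library left out the ranges were -1.23 to 0.12 (Col11a2), -0.18 to 0.17 (Col12a1), -0.23 to 0.68 (Col14a1), -0.69 to 0.88 (Col16a1), -0.00030 to 0.99 (Col19a1), -0.80 to 0.67 (Col22a1), -0.72 to 1.75 (Col23a1), -0.036 to 0.74 (Col25a1), -0.15 to 0.28 (Col27a1), -0.27 to 0.80 (Col4a3), -0.45 to 0.098 (Col4a5), -0.65 to 0.20 (Col5a1), -0.28 to 0.23 (Col9a1) and -1.53 to 0.77 (Col9a2). The cause of these changes was not tested.

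The replicate numbers do not state a pairing, and the deviations of same-numbered libraries had a correlation of -0.032 over tested genes. With the number as a replicate block, 75 genes were higher and 97 lower, 1 collagen gene was lower, Col9a3 was at -1.24, and Col16a1 and Col23a1 changed sign to 0.040 and 0.081. Without a filter on low counts all 44 collagen genes were tested and the 11 added ones had edgeR adjusted p-values of at least 0.725.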
